A study of Homo sapiens with 8 samples.

Results

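The EGF-family ligand genes encode the growth factors that bind the ERBB receptors, and 10 of them, EGF, TGFA, AREG, EREG, BTC, HBEGF, EPGN, NRG1, NRG2 and NRG4, were found by symbol among the 30434 genes of the count table, each on 1 row. The rule takes them by symbol and uses no measured value, though the set was proposed with earlier results of these data known. Each ligand is made as a membrane-anchored precursor with an EGF-like domain. A protease cuts the precursor at the cell surface, and the released domain binds a receptor and brings receptors together in pairs. EGF, TGFA, AREG and EPGN act on EGFR. BTC, HBEGF and EREG act on EGFR and ERBB4. Of the neuregulins, NRG1 and NRG2 act on ERBB3 and ERBB4, and NRG4 acts on ERBB4. ERBB2 has no ligand of its own and takes part as the partner of a ligand-bound receptor, which is why the ligands matter in breast cancer cells that depend on ERBB2.

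The cells were SKBR3, a human breast cancer line with amplified ERBB2, grown in DMEM with 10% fetal bovine serum in both groups. The 4 control libraries have the genotype WT in the labels. The 4 knockdown libraries came from a stable line made with lentiviral short hairpin RNAs against FOXA1, a pioneer transcription factor of luminal breast cells. The labels name 3 hairpins without tying one to a library, give no control vector, and do not say whether replicates were separate cultures, so the spread between libraries may be technical.

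Library totals ran from 19087878 to 23786684 counts. FOXA1 itself, the check of the labels, went from 191.7 ± 1.65 CPM in control to 3.96 ± 0.34 CPM in knockdown (n = 4 per group, SD), where CPM is a count per 1000000 counts of the TMM-scaled library. An adjusted p under 0.05 in edgeR's quasi-likelihood test, over the 16430 genes that passed the filter on low counts, was called a change. By that rule 77.1% of the tested genes changed, 39.4% upward and 37.7% downward, so a call by itself was common in this comparison. On the second principal component, which carried 1.05% of the variance, control replicate 3 scored 19.9, where the remaining controls scored from -7.8 to -4.9.

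EGF, the founding ligand of the family, was the most abundant member in control cells and was nearly lost in knockdown cells. It is on chromosome 4 (109912884 to 110012266, plus strand, GENCODE 29 on GRCh38). Its counts were 834, 805, 764 and 867 in the control libraries, in the order of their replicate numbers, and 9, 15, 9 and 18 in the knockdown libraries. The groups lay far apart, and the control libraries differed little among themselves. The level went from 37.1 ± 0.865 to 0.572 ± 0.199 CPM (n = 4 per group, SD), which left 1.54%. EGF fell by 6.01 on the log2 scale (SE 0.237), with an edgeR adjusted p of 9.11e-25. The exact two-sided permutation test over the 70 divisions of the libraries gave p = 0.0286, which is the lowest value possible for groups of 4. In RNA from whole cultures, fewer cells that express a gene and less RNA per cell cannot be told apart.

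BTC (betacellulin) showed the same near loss from a lower level. The gene is on chromosome 4 (74744759 to 74794686, minus strand). It had 180, 184, 147 and 211 counts in control and 6, 4, 1 and 2 in knockdown. No knockdown library came near a control library. The level went from 8.17 ± 0.877 to 0.141 ± 0.0894 CPM (n = 4 per group, SD), or 1.72% of control. BTC fell by 5.76 on the log2 scale (SE 0.41, edgeR adjusted p 4.45e-18, exact permutation p = 0.0286). With a prior count of 2 in place of the smaller default the fitted value of BTC was -5.13.

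AREG (amphiregulin), a heparin-binding EGFR ligand best known from mammary duct growth, was not detected in 3 of the 4 knockdown libraries. It is on chromosome 4 (74445134 to 74455009, plus strand). Control counts were 50, 51, 51 and 45, and knockdown counts were 0, 0, 1 and 0. Every control library was above every knockdown library, and the only knockdown count was in replicate 3. The level went from 2.24 ± 0.209 to 0.0127 ± 0.0255 CPM (n = 4 per group, SD). AREG fell in edgeR's test (adjusted p of 2.29e-13, exact permutation p = 0.0286), but its fold rests on 1 count. The ratio of knockdown to control over the summed libraries was 0.00502, with a 95% exact interval from 0.000126 to 0.0283 that covers counting error only. The fitted log2 fold change of -7.06 was -8.66 without knockdown replicate 3 and -4.52 with a prior count of 2.

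These 3 ligand genes moved together, so the 250 bases before the RefSeq start of each are shown (GRCh38.p14, strand of the gene, 5′ to 3′). EGF is at chr4:109912633-109912882 on the plus strand, AREG at chr4:74444886-74445135 on the plus strand and BTC at chr4:74794524-74794773 on the minus strand. Capitals mark matches to the motifs searched, which were the forkhead core as TGTTTAC or TATTTAC, the AP-1 site as TGANTCA and the cAMP response element as TGACGTCA, all on both strands, and the TATA box as TATAAA on the gene's strand.
EGF: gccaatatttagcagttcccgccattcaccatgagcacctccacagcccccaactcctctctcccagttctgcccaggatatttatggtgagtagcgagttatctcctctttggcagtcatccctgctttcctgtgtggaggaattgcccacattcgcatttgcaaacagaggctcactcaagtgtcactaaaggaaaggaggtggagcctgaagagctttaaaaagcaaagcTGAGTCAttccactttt
AREG: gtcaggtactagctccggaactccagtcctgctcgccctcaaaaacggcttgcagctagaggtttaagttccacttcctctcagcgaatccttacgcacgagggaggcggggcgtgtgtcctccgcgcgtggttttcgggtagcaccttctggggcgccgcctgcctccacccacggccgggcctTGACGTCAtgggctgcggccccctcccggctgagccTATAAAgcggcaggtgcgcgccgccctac
BTC: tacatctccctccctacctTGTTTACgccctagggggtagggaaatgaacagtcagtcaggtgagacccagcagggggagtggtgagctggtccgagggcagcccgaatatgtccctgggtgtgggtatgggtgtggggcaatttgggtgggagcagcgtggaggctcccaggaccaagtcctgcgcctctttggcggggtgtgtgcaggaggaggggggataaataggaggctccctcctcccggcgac
The upstream stretch of BTC held 1 forkhead core, TGTTTAC, which began 231 bases before the start. This motif occurs in the same window of 2.98% of 35116 RefSeq promoters, and TATTTAC, absent from all 3 sequences, in 2.39%. EGF held 1 AP-1 motif, TGAGTCA, which began 17 bases before the start, against 6.57% of promoters with TGANTCA. AREG held TGACGTCA, which began 65 bases before the start, against 1.65% of promoters, and TATAAA, which began 29 bases before it, against 6.8%. No match overlapped another. The promoters of the other members read (HBEGF, EPGN, EREG, TGFA, NRG2 and NRG4) held none of the forkhead, AP-1 or cAMP motifs searched in this window. Forms of the forkhead core other than TGTTTAC and TATTTAC were not searched in any promoter. The promoter of NRG1 was left out and is not reported here. TATAAA was present in those of EPGN, EREG and NRG4. These are matches of letters and are not shown to be bound sites.

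HBEGF, the heparin-binding ligand that also serves as the diphtheria toxin receptor, rose. It is on chromosome 5 (140332843 to 140346631, minus strand). Its counts were 34, 23, 22 and 48 in control and 92, 97, 74 and 96 in knockdown. The groups did not overlap, although control replicates 1 and 4 lay above control replicates 2 and 3. The level went from 1.43 ± 0.49 to 4.02 ± 0.292 CPM (n = 4 per group, SD). The difference was 1.48 on the log2 scale (SE 0.242, edgeR adjusted p 3.7e-08, exact permutation p = 0.0286). HBEGF was thus 2.82-fold higher.

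EPGN (epigen), a low-affinity EGFR ligand, rose slightly. It is on chromosome 4 (74308473 to 74315307, plus strand), and its counts were 67, 58, 59 and 59 in control and 78, 81, 66 and 91 in knockdown. On the CPM scale the groups did not overlap, with control at 2.76 ± 0.231 and knockdown at 3.55 ± 0.44 (n = 4 per group, SD). The log2 fold change was 0.36 (SE 0.103, edgeR adjusted p 0.0175, exact permutation p = 0.0286). The adjusted p was 0.0581 without control replicate 4, 0.085 without knockdown replicate 4, the highest of the 4 at 4.21 CPM, and 0.0647 by DESeq2.

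EREG (epiregulin) and TGFA (transforming growth factor alpha) were at or near the detection floor in both groups. The floor used is 3 counts, which was between 0.123 and 0.153 CPM in these libraries. EREG, on chromosome 4 (74365143 to 74388751, plus strand), had 5, 5, 5 and 12 counts in control and 6, 5, 0 and 4 in knockdown. The groups overlapped (exact permutation p = 0.143), and the ratio of knockdown to control over summed counts was 0.549 (95% exact interval 0.271 to 1.07, counting error only). TGFA, on chromosome 2 (70447280 to 70554193, minus strand), had 0, 3, 2 and 0 counts in control and 1, 1, 0 and 0 in knockdown, too few for a fold (exact permutation p = 0.429). TGFA is a classic autocrine ligand of EGFR in carcinoma lines, and at this depth it was not above the floor in any of the 8 libraries.

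The 3 neuregulin genes of the set were all higher in knockdown. NRG1, on chromosome 8, encodes the main ligand of ERBB3 and ERBB4. It had 2, 7, 10 and 8 counts in control and 23, 26, 20 and 14 in knockdown. The counts were low, with control replicate 1 lowest and knockdown replicate 4 nearest to the controls, and the groups did not overlap. The level went from 0.307 ± 0.159 to 0.927 ± 0.19 CPM (n = 4 per group, SD). The log2 fold change of NRG1 was 1.58 (SE 0.49, edgeR adjusted p 0.000133, exact permutation p = 0.0286).

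NRG2, a second ligand of ERBB3 and ERBB4 known mainly from the nervous system, is on chromosome 5 (139846779 to 140043299, minus strand). It had 79, 61, 65 and 80 counts in control and 106, 136, 103 and 119 in knockdown. The level rose from 3.23 ± 0.379 to 5.21 ± 0.488 CPM without overlap (n = 4 per group, SD). The log2 fold change was 0.69 (SE 0.111, edgeR adjusted p 1.63e-05, exact permutation p = 0.0286). The 50 nearest tested coding genes of NRG2 had a median of 0.52, and with that regional shift taken out its value was 0.17, not past the threshold (edgeR adjusted p 0.224).

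NRG4, a ligand of ERBB4 made by fat tissue among others, is on chromosome 15 (75935969 to 76059795, minus strand). Its counts were 16, 12, 10 and 16 in control and 21, 20, 20 and 19 in knockdown. The groups did not overlap in CPM, at 0.61 ± 0.121 and 0.902 ± 0.0837 (n = 4 per group, SD), but the call was marginal. The log2 fold change was 0.55 (SE 0.155, edgeR adjusted p 0.0483, exact permutation p = 0.0286). The adjusted p was above the threshold without control replicate 2 (0.102), 3 (0.139) or 4 (0.0577), and without knockdown replicate 1 (0.0766), 2 (0.0538), 3 (0.112) or 4 (0.0697). By DESeq2 it was 0.158. Exons of NRG4 share 1917 bp with FBXO22 on the opposite strand, and FBXO22 averaged 1319.5 counts. FBXO22 was at 59.6 ± 0.538 CPM in control and at 59.5 ± 2.22 in knockdown (n = 4 per group, SD). Whether the counting used strand is not given in the sources used here, so the part of FBXO22 reads in the NRG4 counts was not tested.

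**Figure D1:**
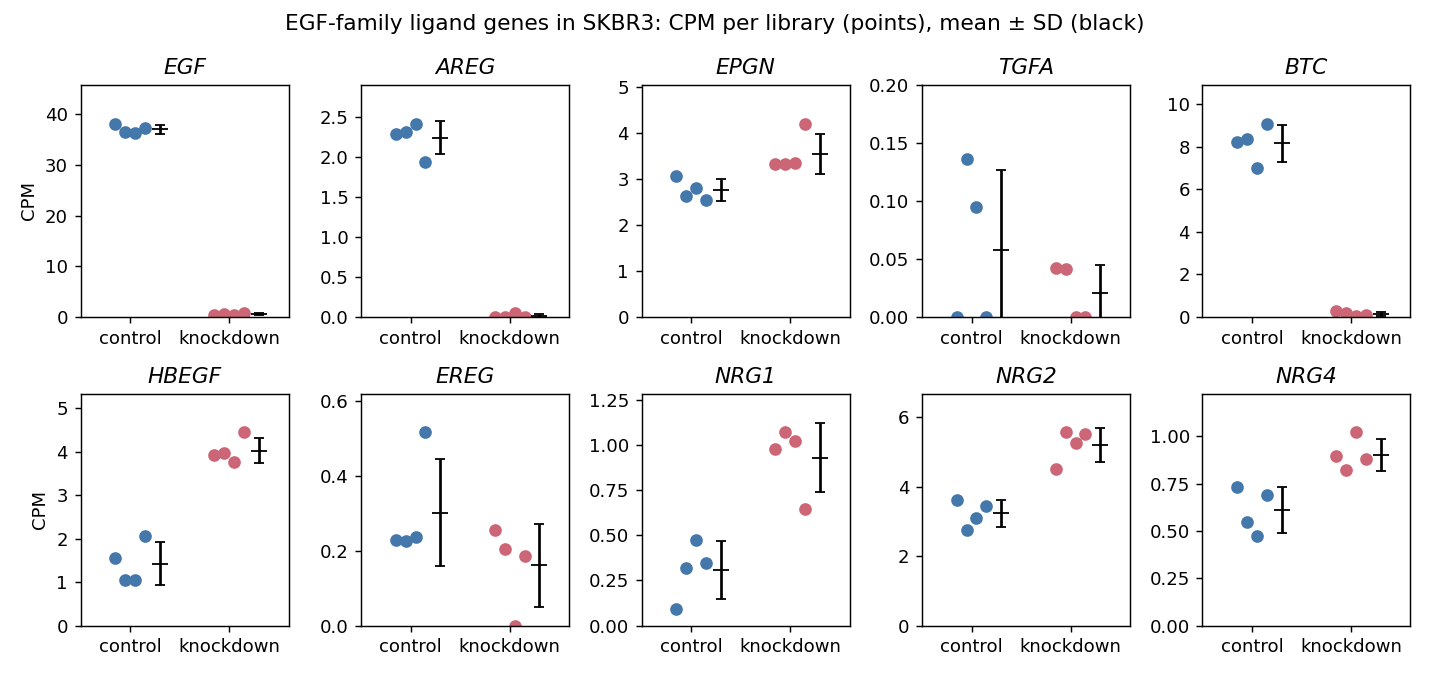
CPM of the 10 ligand genes in each library (points, 4 control and 4 knockdown), with the mean and SD in black; each panel has its own axis from 0, and SD bars that reach below 0 are cut off there. EGF, AREG and BTC sit near 0 in knockdown. The 8 genes other than EREG and TGFA show no overlap between the groups, and neither do 72.0% of all tested genes.

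Of the 10 members, 8 passed the filter on low counts, and all 8 of these were called, 3 lower and 5 higher, where 77.1% of all tested genes were. EGF, AREG and BTC met the filter through the control libraries and NRG1 through the knockdown libraries, so these 4 could pass only by being high in a group. The CPM of the groups did not overlap for these 8, against 72.0% of all tested genes. EGF, AREG, BTC, HBEGF and NRG1, or 5 of 8, changed 2-fold or more, against 28.3% of tested genes. EGF, AREG and BTC fell at least 32-fold, as did 1.58% of tested genes. These shares are no test of the set, which was proposed with earlier results known. They rest largely on EGF, AREG, BTC and NRG1, which passed the filter only through the group where they were high. The median log2 fold change was 0.46 over the 8 members and 0.02 over all tested genes. Without control replicate 3, the log2 fold changes of EGF, AREG, BTC, HBEGF, NRG1, NRG2 and EPGN were -6.02, -7.02, -5.83, 1.36, 1.85, 0.66 and 0.36, all still past the threshold, and that of NRG4 was 0.45, which was not.

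The summed level of the 10 genes went from 56.2 ± 2.13 to 15.5 ± 0.993 CPM (n = 4 per group, SD). The fall was in the sum of the 7 EGFR ligand genes, from 52.1 ± 1.82 to 8.48 ± 0.894 CPM, though HBEGF and EPGN among them rose. The 3 neuregulin genes together went from 4.15 ± 0.399 to 7.04 ± 0.474 CPM. Per kilobase of annotated exon, the EGFR ligands summed to 12.4 ± 0.451 CPM in control and to 3.47 ± 0.351 in knockdown. The neuregulins summed to 0.863 ± 0.0962 and 1.41 ± 0.103 on that scale. In control libraries EGF held 66% ± 1.24 of the ligand counts, BTC 14.5% ± 1.21 and NRG2 5.74% ± 0.506. In knockdown libraries NRG2 held 33.5% ± 2.04, HBEGF 25.9% ± 0.881 and EPGN 22.8% ± 1.67, while EGF held 3.64% ± 1.03 (n = 4 per group, SD). EGF took the largest share of the ligand counts in control and NRG2 in knockdown, without correction for length. Without EGF, the other 9 summed to 19.1 ± 1.38 CPM in control and to 14.9 ± 0.794 in knockdown.

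**Figure D2:**
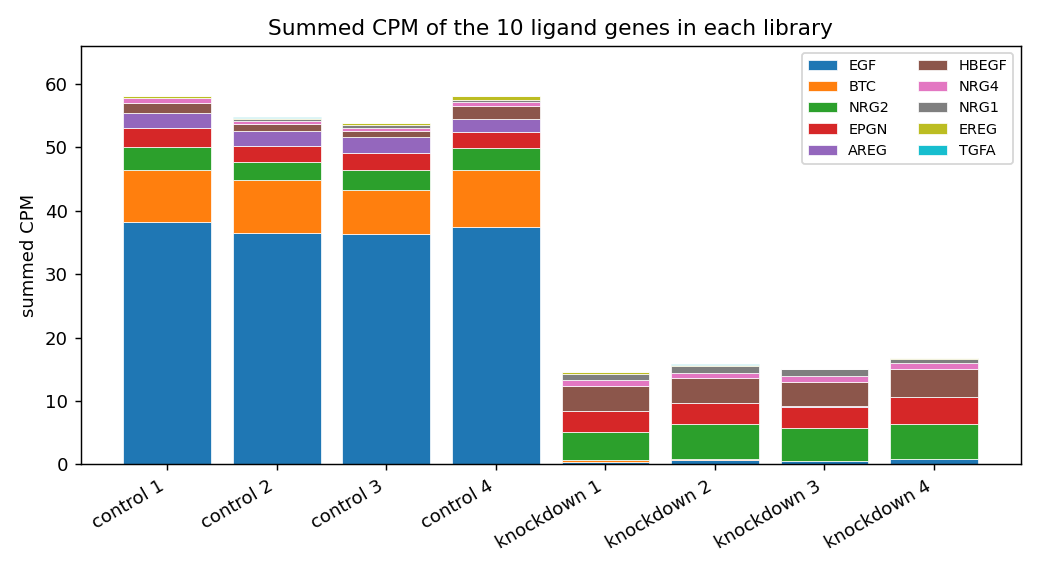
Summed CPM of the 10 ligand genes in each of the 8 libraries, stacked by gene from 0. Control bars are mostly EGF and BTC, and knockdown bars are mostly NRG2, HBEGF and EPGN.

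Levels of different genes can be set side by side only per length, here as CPM per kilobase of annotated exon (GENCODE 29). In control the order was EGF at 6.05 ± 0.141, BTC at 2.9 ± 0.311, EPGN at 1.52 ± 0.127 and AREG at 1.36 ± 0.127 (n = 4 per group, SD). NRG2 at 0.715 ± 0.0838, HBEGF at 0.473 ± 0.162 and NRG4 at 0.121 ± 0.024 followed, and EREG, NRG1 and TGFA were at 0.0529 or less. The libraries of neighbours in this order overlapped for EPGN and AREG, NRG2 and HBEGF, EREG and NRG1, and NRG1 and TGFA. In knockdown EPGN came first at 1.96 ± 0.243, then HBEGF at 1.33 ± 0.0966, NRG2 at 1.15 ± 0.108 and NRG4 at 0.179 ± 0.0166 (n = 4 per group, SD), with no overlap between these neighbours. EGF at 0.0934 ± 0.0325 stood in the fifth place and overlapped NRG1 at 0.0819 ± 0.0167. Below them BTC, EREG, AREG and TGFA overlapped in turn. EPGN thus came after EGF and BTC per length in control, at 1.52, and was the highest ligand transcript per length in knockdown, at 1.96. EGF and BTC had fallen below it.

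EPGN, EREG, AREG and BTC are neighbours on chromosome 4 within 486.2 kb, so their shared surroundings were examined. EPGN is 49.8 kb from EREG, EREG 56.4 kb from AREG, and AREG 289.7 kb from BTC. AREG and BTC fell to near 0 while EPGN, in the same cluster, rose. Within 1 Mb on either side the table held 16 other coding genes, of which 8 passed the filter, 5 lower, 1 higher and 2 not past the threshold, with a median log2 fold change of -0.17. Over all tested genes 77.1% were called, and the median was 0.02. PARM1, the tested gene next to BTC, rose from 0.126 ± 0.0688 to 3.64 ± 0.293 CPM (n = 4 per group, SD), with a log2 fold change of 4.80 (SE 0.401, edgeR adjusted p 1.16e-14). RASSF6, a gene of the RAS-association family, fell by 1.77 on the log2 scale (SE 0.302), and USO1, a Golgi tether, fell by 0.63 (SE 0.0863). Smaller falls were called for RCHY1 (-0.24), MTHFD2L (-0.18) and THAP6 (-0.16), with log2 values given. For each of these the CPM of the groups overlapped. ODAPH at -0.02 (edgeR adjusted p 0.931) and G3BP2 at 0.00 (adjusted p of 0.928) were not past the threshold. The chemokine genes CXCL1, CXCL2, CXCL3, CXCL5 and CXCL8 in the same window were below the filter. None of the 8 other tested genes fell by as much as AREG or BTC.

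**Figure D3:**
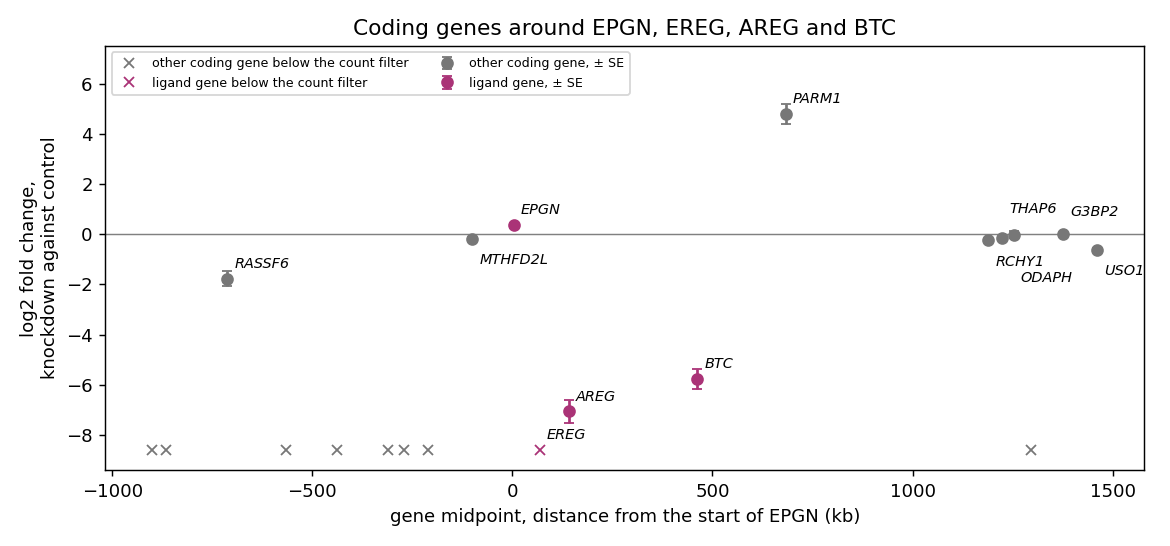
Log2 fold change (± SE) of coding genes within 1 Mb of the ligand cluster on chromosome 4, against the distance of the gene's midpoint from the start of EPGN in kb; crosses at the bottom are genes below the count filter, with no value. The SE is that of log2 CPM between replicates, not an error of the fit. AREG and BTC lie at -7.06 and -5.76 between EPGN at 0.36 and PARM1 at 4.80.

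As a measure of the surroundings of each member, log2 fold changes of the 50 nearest tested coding genes were taken, and their median is given. It was -0.25 for EGF, -0.16 for AREG and BTC, and -0.17 for EPGN. NRG2 and HBEGF, which lie 289.5 kb apart on chromosome 5, had regional medians of 0.52 and 0.30. NRG4 had a regional median of -0.32 and NRG1 of 0.13. With the regional shift taken out as an offset, the log2 fold changes were -5.76 for EGF, -6.92 for AREG, -5.60 for BTC, 1.19 for HBEGF and 1.45 for NRG1. EPGN and NRG4 were then higher than before, at 0.53 and 0.87, and NRG2 alone among the 8 was no longer called.

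**Figure D4:**
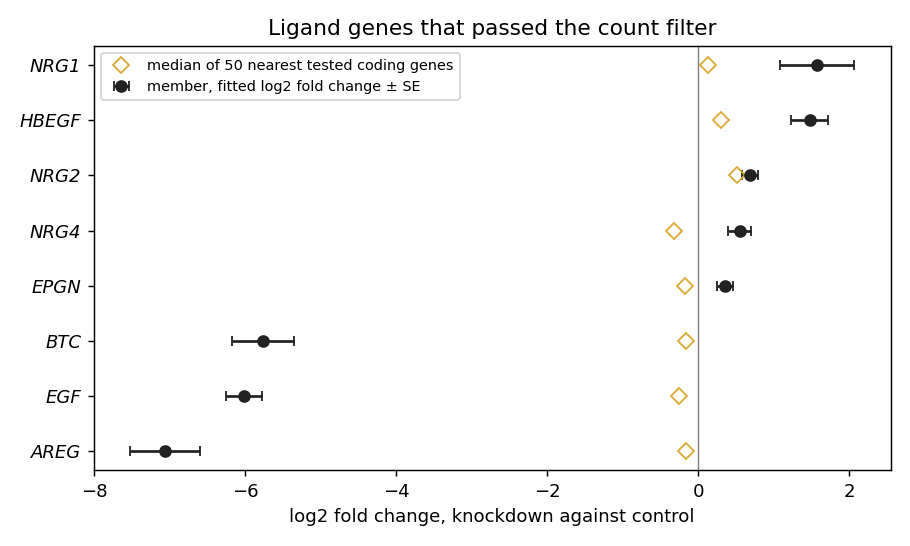
Fitted log2 fold change of the 8 ligand genes that passed the count filter, ordered by value, with the median of the 50 nearest tested coding genes as open diamonds. Bars are ± SE of log2 CPM between replicates with 0.5 counts added, not an error of the fit. The value of AREG rests on 1 knockdown count and depends on the prior count. The 3 falls lie far from their regional medians, and NRG2 at 0.69 lies close to its own, at 0.52.

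For the called members with the highest mean level over all libraries, EGF and NRG2, the genes with the most similar values were sought among 13277 other tested coding genes. Likeness was the Euclidean distance over the 8 values of log2(CPM + 0.5). Nearest to EGF were MUC1 at a distance of 0.62, TMSB4X at 0.682 and TMPRSS4 at 0.841. MUC1, a mucin of the apical surface, went from 34.5 ± 3.58 to 0.731 ± 0.209 CPM (n = 4 per group, SD), close to EGF in both groups. Nearest to NRG2 were ASTN2 at 0.183, NR3C2 at 0.359 and BCL2 at 0.411. The distances describe the level and the difference between the groups, which dominates these 8 values.

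The receptors that these ligands bind were measured in the same libraries. EGFR rose from 207.4 ± 4.38 to 403.5 ± 20.7 CPM and ERBB3 from 258 ± 4.26 to 351.2 ± 16.5 CPM, while ERBB2 fell from 7308.2 ± 365.3 to 1340.1 ± 52.9 CPM (n = 4 per group, SD; edgeR adjusted p at most 2.03e-11). ERBB4, the receptor shared by BTC, HBEGF, EREG and the neuregulins, had 6, 4, 7 and 9 counts in control. None of the knockdown libraries held a count of it, which allows up to 0.153 CPM. Per kilobase of exon, the EGFR level went from 16.6 to 32.2 CPM between control and knockdown, so each ligand transcript was below the EGFR transcript in both groups.

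Ligand release takes a protease and its regulators. Of 16 such genes on the list, all were tested, with 9 higher, 5 lower and 2 not past the threshold, and a median log2 fold change of 0.40 against 0.02 over all tested genes. ADAM17, the main sheddase of AREG, HBEGF, EREG, EPGN and TGFA, rose from 40.6 ± 2.41 to 68.4 ± 2.53 CPM (n = 4 per group, SD; log2 fold change 0.75, edgeR adjusted p 2.55e-13). ADAM10, the main sheddase of EGF and BTC, was at 129.3 ± 11.3 CPM in control and at 120.2 ± 4.84 in knockdown and was not past the threshold (edgeR adjusted p 0.0883). The largest rises were in ADAM12, from 0.104 ± 0.0779 to 4.61 ± 0.565 CPM, and in TIMP1, an inhibitor of matrix proteases, from 0.501 ± 0.165 to 10.1 ± 0.996 CPM. The inhibitor of ADAM17, TIMP3, rose from 4.53 ± 0.219 to 34.7 ± 0.736 CPM. RHBDL2, a rhomboid protease that can cut EGF, fell from 6.75 ± 0.659 to 0.102 ± 0.0462 CPM (n = 4 per group, SD; log2 fold change -5.99, edgeR adjusted p 4.09e-18). ADAM15 fell by 0.79 on the log2 scale. ADAM17, ADAM10 and TIMP3 are outside the fixed rule for naming and were singled out for their roles after their values were seen.

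Of 7 genes listed for transport of ligands to the surface, 6 were tested (all but NKD2), with 4 lower and 2 higher and a median of -0.16. GORASP2, a Golgi protein that binds TGFA, fell by 0.68 on the log2 scale (SE 0.031), and CNIH1, a cargo receptor, fell by 0.26 (SE 0.0308). AP1M2, an adaptor for sorting to the basolateral membrane, rose by 0.48 on the log2 scale (SE 0.0414). AP1M1, the related subunit, rose by 0.14 (SE 0.0684, edgeR adjusted p 0.0287), and its CPM overlapped between the groups.

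Among 7 surface partners of the ligands, all tested, 5 were higher and 2 lower, with a median of 0.80. CD44, a carrier of heparan sulfate that can hold HBEGF, rose from 1.7 ± 0.294 to 13.6 ± 0.466 CPM, and the proteoglycan gene GPC1 from 33.6 ± 2.44 to 64.3 ± 0.625 CPM (n = 4 per group, SD). CD82, a tetraspanin that restrains EGFR, fell from 251.8 ± 15.2 to 20.5 ± 0.826 CPM, and the proteoglycan gene SDC1 from 476.2 ± 17.6 to 141.2 ± 5.44 CPM (n = 4 per group, SD).

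The receptor inhibitors, 10 of 10 tested, had 6 higher and 4 lower members and a median of 0.54. LRIG1, which promotes the breakdown of ERBB receptors, fell from 24.8 ± 0.864 to 4.37 ± 0.454 CPM, and RNF41, a ubiquitin ligase for ERBB3, from 46.5 ± 0.926 to 19 ± 0.432 CPM. CBLB, a ubiquitin ligase for EGFR, rose from 4.01 ± 0.629 to 11.9 ± 0.953 CPM, and SOCS3 from 3.65 ± 0.26 to 7.61 ± 0.386 CPM (n = 4 per group, SD). The counts and medians of these lists stand beside 77.1% of all tested genes called and a median of 0.02 over them.

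**Figure D5:**
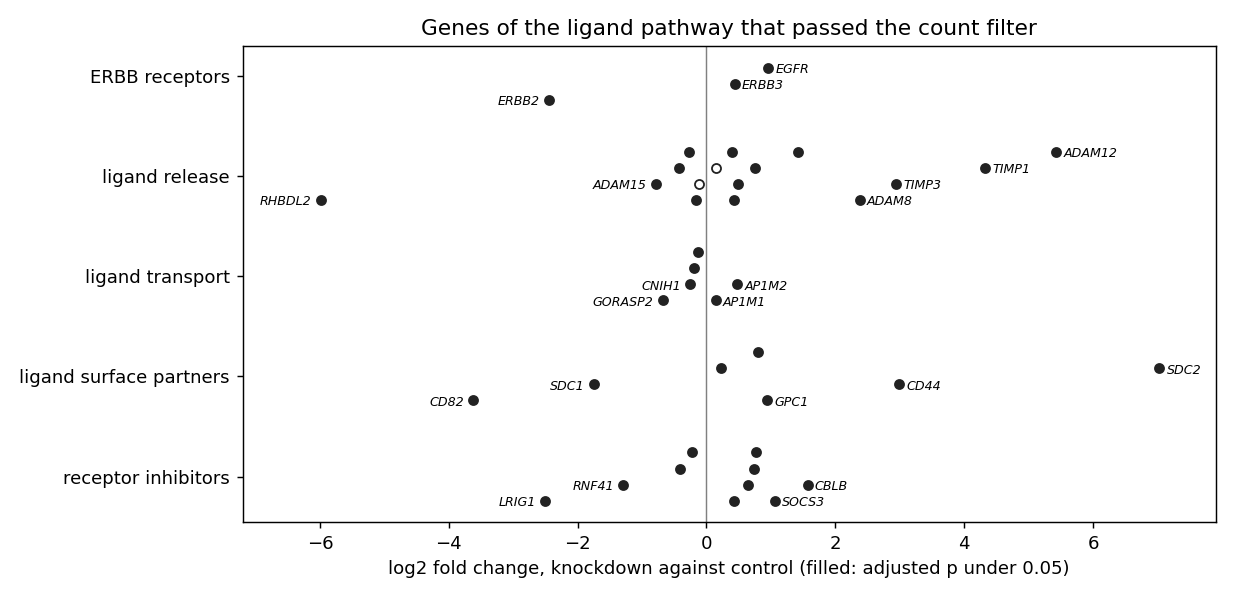
Fitted log2 fold changes of the tested genes in 5 lists around the ligands (receptors, release, transport, surface partners and receptor inhibitors); filled points have an adjusted p under 0.05, open points do not, and names are given for genes named by rule or beyond 2. SDC2 had 0 counts in every control library, so its value depends on the prior count.

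The epithelial character of the libraries was checked with markers. The counts of called markers stand beside 77.1% of all tested genes called. All 10 mammary epithelial genes listed were detected, with 5 higher, 4 lower and 1 not past the threshold. They summed to between 19368 and 21538 CPM in control and between 12293 and 13221 CPM in knockdown. ERBB2 had the largest fall, from 7308.2 ± 365.3 to 1340.1 ± 52.9 CPM (n = 4 per group, SD, also below). KRT19 fell from 2645.1 ± 133.4 to 723 ± 36.2 CPM and KRT7 from 2201.7 ± 87.9 to 637 ± 10.2. KRT8 rose from 4518.8 ± 218 to 5619.2 ± 362 CPM and KRT18 from 2312.1 ± 152.3 to 3456.7 ± 135.2. ELF3 was also lower, and EPCAM, CLDN4 and CLDN7 were higher, though the CPM of CLDN4 overlapped between the groups. Of 7 basal genes 6 were tested, with 2 higher, 3 lower and 1 not past the threshold. TP63, a transcription factor of basal cells, rose from 0.147 ± 0.0429 to 7.86 ± 0.552 CPM, while MYLK fell from 8.4 ± 0.661 to 4.86 ± 0.787, ACTA2 from 1.33 ± 0.264 to 0.0674 ± 0.0252 and KRT17 from 1.22 ± 0.213 to 0.18 ± 0.0925 CPM (n = 4 per group, SD). With these opposite changes the basal list summed to 12.1 to 14.8 CPM in control and to 15.6 to 17.8 CPM in knockdown. The fibroblast list summed to 5.31 to 7.12 CPM in control and 10.8 to 12 CPM in knockdown, with 3 of 8 genes tested, 2 higher and 1 lower. COL3A1 rose from 0.0222 ± 0.0257 to 4.32 ± 0.193 CPM and PDGFRB from 0.41 ± 0.11 to 2.83 ± 0.476, while COL1A1 fell from 5.38 ± 0.755 to 4.33 ± 0.221 CPM (n = 4 per group, SD). DCN, PDGFRA, COL1A2 and FAP had at most 3 counts in any library, and LUM was not found by name among the 30434 genes. The immune list summed to 75.2 to 82.2 CPM in control and 56.6 to 64.6 CPM in knockdown, most of it CSF1R. CSF1R fell from 72.5 ± 3.18 to 59.7 ± 3.57 CPM and CD68 from 4.94 ± 0.632 to 0.589 ± 0.406, and CD14 rose from 0.181 ± 0.063 to 0.533 ± 0.0905 CPM (n = 4 per group, SD). PTPRC had 3 counts or fewer in every library, and CD3E, CD3D and MS4A1 were not found by name. The endothelial list summed to 20.9 to 22.2 CPM in control and 19.9 to 22.5 CPM in knockdown, most of it CDH5. Its 2 tested genes were called in opposite directions, VWF falling from 5.22 ± 0.584 to 0.845 ± 0.218 CPM and CDH5 rising from 16.1 ± 0.295 to 20.1 ± 1.36 CPM (n = 4 per group, SD), with PECAM1, KDR, TEK and CLDN5 at 7 counts or fewer. Marker genes outside the fixed rule for naming were named after their values were seen. The part of these shifts in the ligand results was not tested.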

How the data were processed

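RNA from 4 control and 4 FOXA1 knockdown SKBR3 libraries was sequenced as paired-end reads of 101 bp on an Illumina NextSeq, per the labels' protocols. The authors deposited raw counts per gene, as whole numbers under versioned Ensembl identifiers with a symbol column. The submitters' processing notes name FastQC, Salmon 1.9, DESeq2 3.16 and hg38 without their roles. If Salmon made the counts, they are rounded estimates in which reads shared between transcripts were divided. The annotation release and the use of strand are not given in the sources used here.

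Columns were matched to samples by name. edgeR 4.0.16 in R 4.3.3 was run on all genes: filterByExpr (minimum 10 counts, total 15) kept 16430 of 30434 genes, TMM factors ran from 0.965 to 1.04, and glmQLFit with robust estimation and glmQLFTest compared the groups, with Benjamini-Hochberg adjustment over all tested genes. A prior count of 0.125 entered the fitted log2 fold changes. Standard errors come from log2 CPM between replicates with 0.5 counts added. Positions and exon lengths come from GENCODE 29 on GRCh38, which matched 96.5% of identifiers. Floors of 3 counts and intervals (95%, exact) cover counting error only. Alternatives were other scalings and filters, DESeq2 1.42.0, limma 3.58.1 voom, a replicate block, a regional offset, a prior count of 2 and leaving out each library.

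Named genes are the 10 members, FOXA1, the receptors, the 2 largest called rises and falls of each pathway list with a mean of at least 50 counts, the tested coding genes within 1 Mb of the chromosome 4 cluster, and the 3 genes most like EGF and NRG2. The members and lists were chosen with earlier results of these data known. A marker gene of the immune list is not reported here. Upstream sequences were read from RefSeq (GRCh38.p14) for 9 members, with NRG1 left out. Figures used Python 3.11.15 and matplotlib 3.10.9.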

Additional observations from a re-analysis of the deposited data

Results flagged for a closer look

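A library was picked out where its gap to the nearest of the other 3 libraries of its group, divided by the range of the group, exceeded Dixon's 95% critical value. Of 82 groups examined, 8 had such a library, and about 4.1 would by chance alone.

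Among the ligand genes, AREG in knockdown replicate 3 was at 0.0509 CPM, from 1 count, where the others had 0. EREG in control replicate 4 was at 0.517 CPM, from 12 counts, where the other controls had 5 counts each (ratio 0.964). EPGN in knockdown replicate 4 was at 4.21 CPM against 3.32 to 3.36 in the others (ratio 0.949), and its adjusted p by edgeR was 0.085 without that library.

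Among the pathway genes, control replicate 3 was low for CNIH1, at 97.9 CPM against 105.9 to 107, and high for CD82, at 274.4 CPM against 242 to 246.7. CBLB was high in control replicate 1, at 4.95 CPM against 3.58 to 3.77, and SOCS3 in control replicate 2, at 4.04 CPM against 3.48 to 3.56. The epithelial marker KRT18 was high in knockdown replicate 4, at 3657.5 CPM against 3371.1 to 3416.4. No cause was tested for any of these.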

How the results depend on the processing

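Across 18 alternatives no ligand gene reversed, and EGF, BTC, HBEGF and, in the 17 that kept them, AREG and NRG1 stayed past the threshold. The number of ligand genes higher in knockdown was 5, and was 3 when a mean count of 50 was required, where NRG1 and NRG4 were not tested, 3 by DESeq2, and 3 to 5 when single libraries were left out. NRG2 was not called with the regional offset (0.17). NRG4 was not called without a filter (0.55) or by DESeq2 (0.56), and its log2 fold change was 0.45 to 0.64 with single libraries left out, 7 of which ended the call. EPGN was not called by DESeq2 (0.36) and ranged from 0.27 to 0.41 with single libraries left out. Counts of all called genes ran from 10279 to 15028, against 12675 of 16430 tested. The lowest was of 12421 tested, with a mean count of 50 required, and the highest of 30434 tested, without a filter.

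Same-numbered libraries did not deviate together: the correlations of their deviations were 0.02, 0.0563, -0.0307 and -0.00064, and only control replicate 2 correlated best with its own number. With a replicate block NRG4 stood at 0.56 on the log2 scale, with an edgeR adjusted p of 0.0801, no other ligand call changed, and 12453 genes were called in all. Depth limits EREG and TGFA, for which no difference was detected, and the sizes of the falls in AREG and BTC. TGFA had too few counts for a fold. For EREG the exact interval of the ratio of knockdown to control was 0.271 to 1.07. It lay above those of AREG, up to 0.0283, and BTC, up to 0.0306. These intervals cover counting error only, and a smaller fall of EREG was not excluded.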
